A study of Mus musculus with 4 samples.

Results

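The Kcnq1 imprinted domain lies on distal mouse chromosome 7 and was taken here as 9 genes: Kcnq1, Kcnq1ot1, Cdkn1c, Slc22a18, Phlda2, Ascl2, Tspan32, Cd81 and Tssc4. Its CTCF peaks were chosen by position alone, as those with a summit between the outermost ends of these genes plus 50 kb on each side (mm10, chromosome 7, 142916822 to 143553145). This 636 kb window held 27 of the 51871 deposited peaks, and its 9 genes were among 49214 annotated genes of the autosomes and X. The peaks come from chromatin immunoprecipitation and sequencing of CTCF, a zinc-finger protein found at chromatin boundaries and loop anchors, in whole testes of mice that were the F1 offspring of B6 and CAST parents. The study comprised 2 immunoprecipitated (IP) samples and 2 input samples, all of this F1 genotype and untreated as far as the labels say. The animals' age is not given in the sources used here. The labels give whole testes and no sorting, so which germ or somatic cells gave a peak cannot be told. The peak list is 1 merged list without values per sample or per parental allele. No spread between replicates can therefore be given, the read depth is unknown, and every comparison below is a description without a test.

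In this domain the long antisense RNA Kcnq1ot1 starts inside Kcnq1, at a control region that is methylated on the maternal chromosome and unmethylated in male germ cells. In somatic and placental tissue Kcnq1ot1 is made from the paternal chromosome and keeps neighbouring genes in cis silent on it. Kcnq1, Cdkn1c, Slc22a18 and Phlda2 are imprinted in embryo and placenta, whereas imprinting of Ascl2, Tspan32, Cd81 and Tssc4 has been described mainly in placenta. These statements are background, since the peak list holds no expression or methylation value.

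Of the 9 genes, 7 matched a table of RefSeq promoter windows (GRCm38.p6, the assembly behind mm10), each running from 250 bases before to 50 bases after a listed transcription start. Kcnq1 and Cdkn1c had no window there, so their promoters were not examined. A CTCF summit fell inside 2 of these 7 windows, at Kcnq1ot1 and Tssc4, where 13.1% of all 32619 promoter windows held one. Among other genes of the domain, the noncoding gene Gm33663, between Cdkn1c and Slc22a18, also had a summit in its window. These 3 windows are printed 5′ to 3′ on the strand of the gene because they show which letters lay under the summits. In Kcnq1ot1 (chr7:143296498-143296797, minus strand) and Tssc4 (chr7:143069118-143069417, plus strand) the capitals mark the summit with 10 bases on either side. In Gm33663 (chr7:143466449-143466748, minus strand) they mark a match to the CTCF core letters searched.
Kcnq1ot1: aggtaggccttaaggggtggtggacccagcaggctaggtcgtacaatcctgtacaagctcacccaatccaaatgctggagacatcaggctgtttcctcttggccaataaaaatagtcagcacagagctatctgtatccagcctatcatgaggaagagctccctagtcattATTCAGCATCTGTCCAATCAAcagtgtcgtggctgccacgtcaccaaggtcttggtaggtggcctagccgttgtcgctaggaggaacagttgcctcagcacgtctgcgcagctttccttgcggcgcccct
Tssc4: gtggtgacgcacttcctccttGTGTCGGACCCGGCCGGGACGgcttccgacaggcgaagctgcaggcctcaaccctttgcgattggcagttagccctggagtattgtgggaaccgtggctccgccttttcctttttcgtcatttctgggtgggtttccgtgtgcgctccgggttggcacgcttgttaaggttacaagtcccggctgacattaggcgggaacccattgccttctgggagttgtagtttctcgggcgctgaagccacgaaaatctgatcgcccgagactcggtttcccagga
Gm33663: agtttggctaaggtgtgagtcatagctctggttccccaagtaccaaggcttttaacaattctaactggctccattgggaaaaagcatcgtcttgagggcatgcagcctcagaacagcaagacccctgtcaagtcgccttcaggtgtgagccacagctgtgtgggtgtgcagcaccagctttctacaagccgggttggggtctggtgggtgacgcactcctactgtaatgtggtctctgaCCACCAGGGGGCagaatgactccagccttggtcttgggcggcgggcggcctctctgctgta

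The core letters searched, on both strands, were CC, any 3 bases, AG, any 2 bases and GGC, which are 12 letters of the CTCF consensus. They occurred in 8.67% of all promoter windows and in 23.4% of those that held a summit. None of the 7 member windows had them (0 of 7), and with so few windows a count of 0 is not far from either share. The summit of Kcnq1ot1 lay at position 181 of its window and that of Tssc4 at position 32, counted from the 5′ end. Their peaks, 551 and 671 bp wide, reach beyond these windows of 300 bases, and the bases outside were not searched. In the Gm33663 window the letters CCACCAGGGGGC began at position 240, and the summit lay at position 237. With looser letters (CC, any 4 bases, G, any 2 bases and GGC), present in 25.4% of all windows and in 51.3% of those with a summit, the only member window with a match was that of Tspan32, which held no summit. A window without these letters says only that they are not written there, and a match is not a measured site.

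Kcnq1ot1 had a summit closer to a gene end than any other member, and that summit stood alone. The gene spans 143213111 to 143296547 and is read from its upper coordinate. Its peak (143296286 to 143296836) had a fold enrichment of 7.35, the ratio of signal at the summit to background as the authors deposited it, and a −log10 q of 29.7. The summit, at 143296617, lay 70 bp upstream of the listed start. In strength the peak lay near the middle of the list, as 56.2% of all deposited peaks had a lower fold and 50.2% a lower −log10 q. Within 1 kb of an annotated end, 19.3% of 12609 long noncoding RNA genes had a summit. No summit fell inside the 83.4 kb of Kcnq1ot1 itself, as in 136 of the 406 long noncoding RNA genes at least as long (33.5%).

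The stretches on both sides of the Kcnq1ot1 summit were the longest without CTCF in the window. The next summit at lower coordinates was 143 kb away, and the next at higher coordinates 165 kb away. The third longest gap was 48.8 kb, and the median of the 26 gaps was 7.78 kb, against 17.8 kb between neighbouring summits on the 19 autosomes. Gaps at least as long as 165 kb made up 5.35% of autosomal gaps, and gaps at least as long as 143 kb made up 6.54%. Of 50229 autosomal peaks with a neighbour on each side, 943 (1.88%) had both neighbours at least 143 kb away. Together the 2 gaps took 307 kb, or 48.3% of the window.

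**Figure D1:**
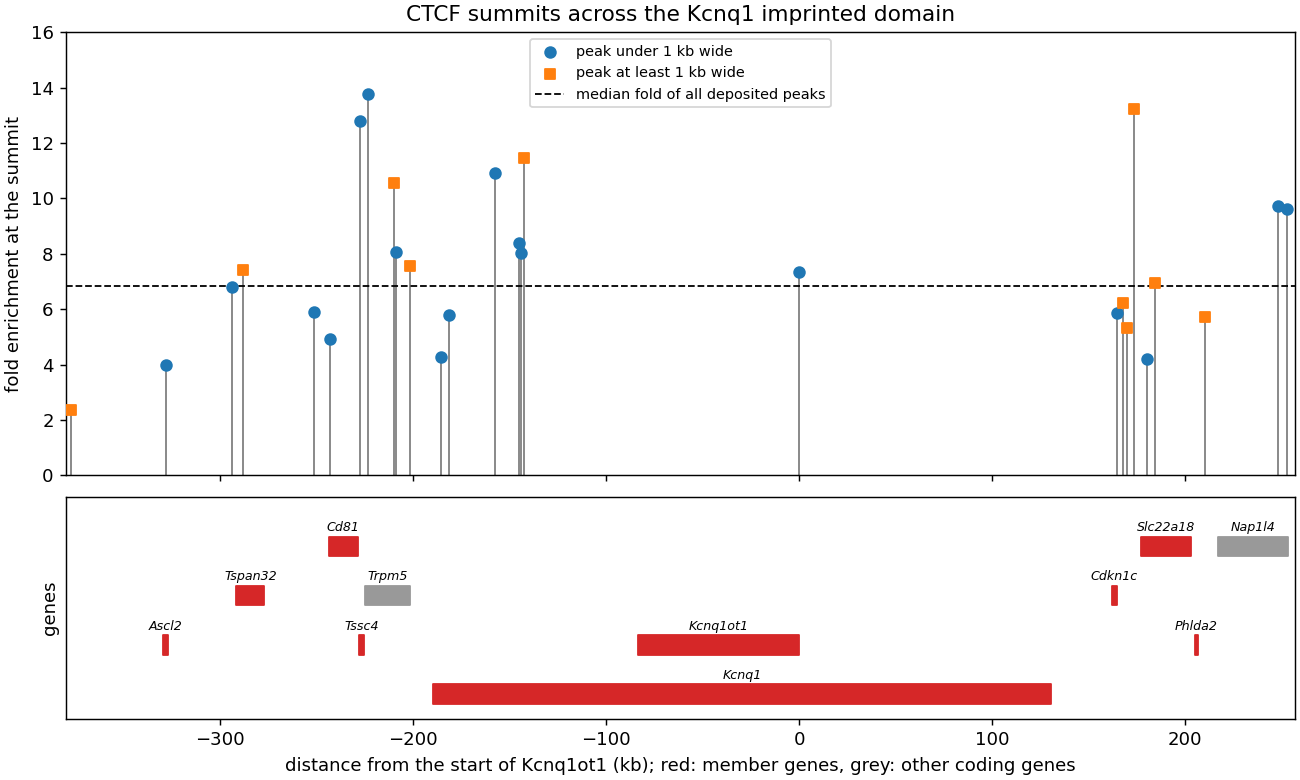
Fold enrichment at each of the 27 CTCF summits (upper panel) and the genes of the window (lower panel) against distance in kb from the start of Kcnq1ot1; squares are peaks at least 1 kb wide and the dashed line is the median fold of all deposited peaks, 6.82. The summit at the start of Kcnq1ot1, with a fold of 7.35, stands alone between gaps of 143 and 165 kb, while the other summits gather on either side.

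Kcnq1 encodes a subunit of a voltage-gated potassium channel of heart and inner ear. It spans 143106877 to 143427050 and runs opposite to Kcnq1ot1, so that it begins at its lower coordinate. It held 7 summits, and 6 of them lay in the first 47.1 kb, or 14.7% of its length. The first pair, 4.11 and 8.10 kb into the gene, was weak, with folds of 4.27 and 5.81 and −log10 q of 6.28 and 12.4. The next, at 32.1 kb, reached a fold of 10.9, with a −log10 q of 58.5. A cluster of 3 followed at 44.5, 45.6 and 47.1 kb, with folds of 8.38, 8.01 and 11.5. The last of these, with its summit at 143154013, had a −log10 q of 77.3, higher than that of 95.9% of all peaks. The remaining 273 kb held a single summit, that of Kcnq1ot1. No summit lay within 1 kb of either end of Kcnq1: the nearest were 4.11 kb from the lower end and 34.1 kb from the upper end.

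Long stretches without CTCF were also the rule in other coding genes of this size. In the 10 protein-coding genes closest to Kcnq1 in length, 319 to 321 kb long, the number of summits ranged from 1 to 11 with a median of 4.5. Fewer summits than in Kcnq1 were found in 7 of the 10 and more in 3. Their longest stretch without a summit ranged from 116 to 320.2 kb, with a median of 197 kb, and was longer than the 143 kb of Kcnq1 in 9 of 10. The 3 closest in length were Sorbs2 with 4 summits, Apbb2 with 11 and Epha3 with 1. By length alone, the stretch without CTCF in Kcnq1 was thus among the shorter ones of these genes.

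**Figure D2:**
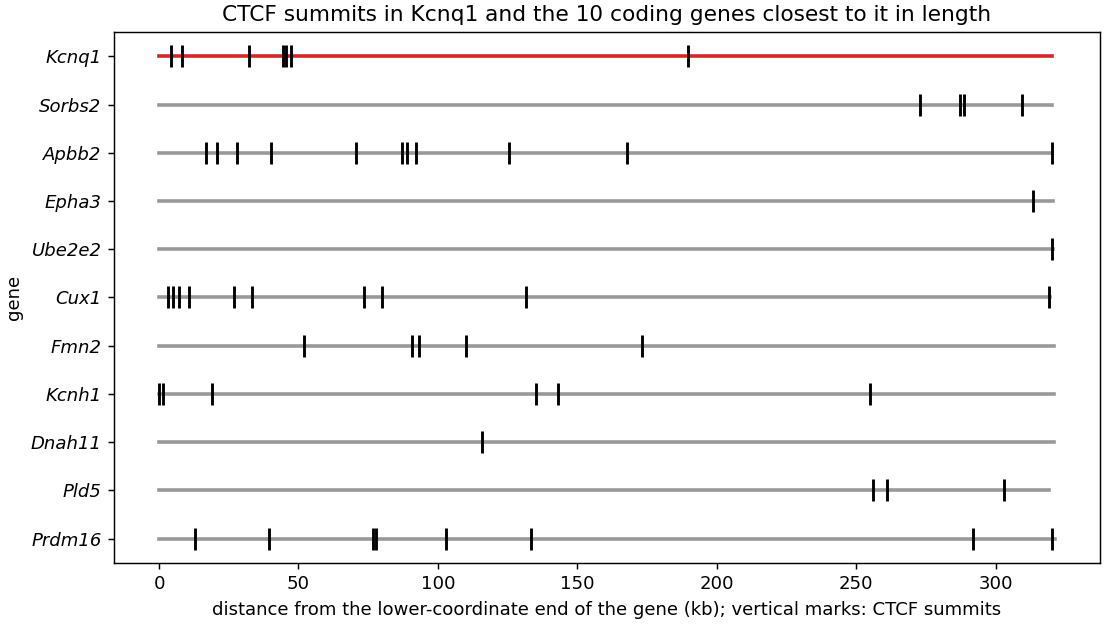
Position of each CTCF summit (vertical marks) in Kcnq1 (red) and the 10 coding genes closest to it in length (grey), in kb from the end with the lower coordinate. In Kcnq1, 6 of 7 summits lie in the first 47.1 kb, and 9 of the 10 other genes have a longer stretch without a summit.

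Cdkn1c, which encodes the cell cycle inhibitor p57, had a summit 99 bp from its upper end and opened a dense group of peaks. The gene spans 143458339 to 143461059, and its summit at 143461158 reached a fold of 5.88 at a −log10 q of 26.8. Over the next 19.5 kb, up to a summit inside Slc22a18, lay 5 more. A peak of 1908 bp inside Gm33663, with its summit at 143464085, had a fold of 6.21 (−log10 q 53.6). The Gm33663 start, 14 bp from the summit at 143466512, was under a peak of 1422 bp (fold 5.33, −log10 q 49.9). The strongest of the group (143469422 to 143470581, summit 143470163) had a fold of 13.2, with a −log10 q of 78.1. It lay between genes, 3.56 kb before the lower end of Slc22a18, and its −log10 q was the highest of the window. Fold there was higher than in 94.3% of all peaks.

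Slc22a18, a transporter gene of the organic cation family (143473726 to 143499334), lacked a summit at its ends. Inside it were a weak summit at 143476857 (fold 4.20, −log10 q 6.28) and a stronger one at 143480680 (fold 6.95, −log10 q 62.6). Phlda2, which limits growth of the placenta, had none inside its 1.6 kb (143501545 to 143503145). Its nearest summit, at 143506931, lay 3.79 kb from the upper end under a peak of 2032 bp, the widest of the window (fold 5.70, −log10 q 47.5). Of the 4 genes imprinted in embryo and placenta, 1, Cdkn1c, had a summit within 1 kb of an end, where 39.1% of all coding genes had one.

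Among the genes imprinted mainly in placenta, 2 of 4 had a summit within 1 kb of an end, Tssc4 and Cd81. With 4 genes in each list, both counts are near the 39.1% of all coding genes, and the lists were not tested against each other. Tssc4, linked to assembly of a spliceosome particle, spans 143068416 to 143071093. Its peak (143068856 to 143069526, summit 143069149) lay inside the gene as annotated, 733 bp from the lower end and 219 bp upstream of a listed start. It had a fold of 12.8, the third highest of the window, and a −log10 q of 57.04. Cd81, a tetraspanin gene (143052750 to 143067930), had a weak summit 456 bp inside its lower end, at 143053206 (fold 4.94, −log10 q 9.23). The strong Tssc4 summit lay 1.22 kb from the upper end of Cd81. Another gene just missed the limit. Ascl2, a transcription factor gene needed in the placenta (142966822 to 142969264), had a summit 1033 bp from its upper end (fold 4.002, −log10 q 5.60). That −log10 q was the lowest of the window. Tspan32, a tetraspanin gene of blood cells (143004907 to 143019486), had a summit of fold 6.81 at 2.04 kb before its lower end and one of fold 7.41, with a −log10 q of 62.2, inside it at 143008200.

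Counted together, 4 of the 9 members had a summit within 1 kb of an annotated end. Among the 8 coding members this was 3 (37.5%), where 39.1% of all 21523 protein-coding genes and 32.1% of those on chromosome 7 had one. The share of the coding members was thus near the background. Neighbouring genes can share a summit and are not independent draws, so no error on this share is given. The median distance from the nearer end to a summit was 1.54 kb over the 8 coding members, against 2.29 kb over all protein-coding genes (quartiles 0.281 and 12.04 kb). Windows of 500 bp and 2.5 kb gave 3 and 6 of 9 members, where 31.4% and 51.1% of coding genes had a summit. At 500 bp the coding ones were Cd81 and Cdkn1c. Listed transcription starts gave 3 of 7 members and 2 of the 6 coding ones, where 37.1% of coding genes with a listed start had one within 1 kb. Peaks with a fold of at least 5 left Tssc4, Cdkn1c and Kcnq1ot1, 3 of 9, where the coding background was 23.7%. Peaks whose −log10 q reached the median of the list left Tssc4 and Kcnq1ot1, 2 of 9, where the coding background was 17.0%. The Kcnq1ot1 peak did so narrowly, with 29.7 against a median of 29.5. Every count of 9 here includes the noncoding Kcnq1ot1, while these backgrounds cover coding genes only. The shares of the coding members alone are lower than the counts of 9 give.

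**Figure D3:**
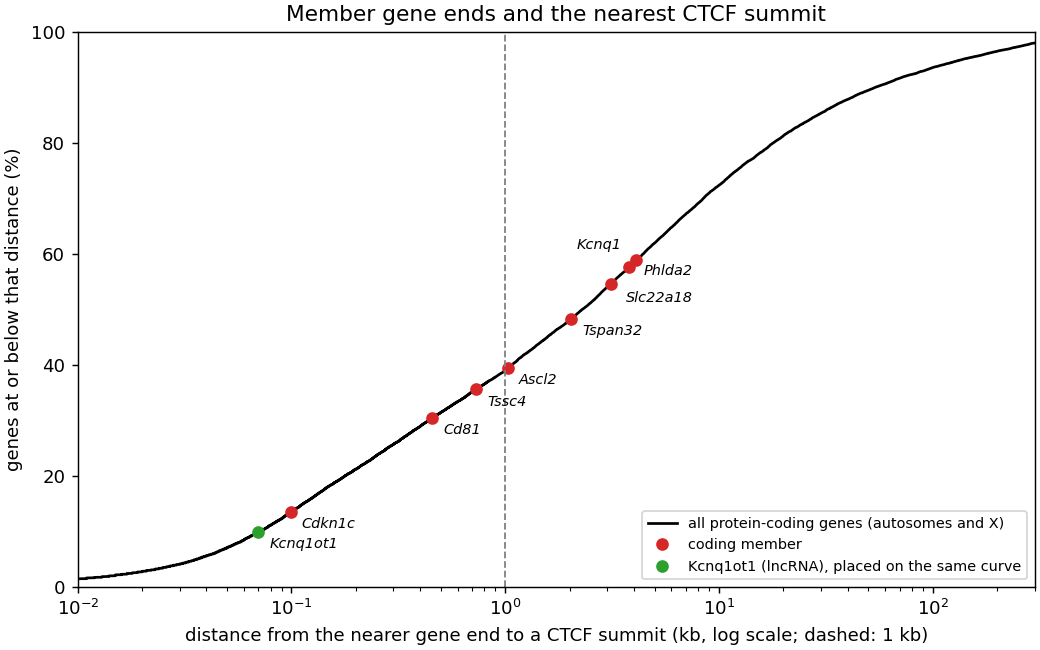
Cumulative share of protein-coding genes (%) against the distance from the nearer gene end to a CTCF summit (kb, log scale), with the 9 members placed on the curve and 1 kb dashed. The members run from 70 bp at Kcnq1ot1 to 4.11 kb at Kcnq1, and Ascl2 lies just beyond 1 kb.

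Of 10 other genes of the domain and its flanks, Trpm5 and Nap1l4 had a summit within 1 kb of an end, 2 of 10 against the 39.1% of all coding genes. By listed transcription start, 3 of the 5 with one had a summit within 1 kb (Trpm5, Osbpl5 and Dhcr7), against 37.1% of coding genes with a listed start. Trpm5, the cation channel of taste cells, lies between Tssc4 and Kcnq1 and held the strongest peak by fold of the window (143072832 to 143073728, summit 143073253). Its fold of 13.8 exceeded that of 95.4% of all peaks, and its −log10 q was 64.0. Further summits inside Trpm5, at 143086531 and 143087537, had folds of 10.6 and 8.08, and one 265 bp beyond its upper end had 7.55. Nap1l4, encoding a histone chaperone, had its nearest summit 725 bp from the upper end, with a fold of 9.61. The tyrosine hydroxylase gene Th, the insulin gene Ins2, the tRNA synthetase gene Cars, the decoy receptor genes Tnfrsf22 and Tnfrsf23, Tnfrsf26, the lipid transfer gene Osbpl5 and the cholesterol synthesis gene Dhcr7 had their nearest summit 2.07 to 22.4 kb from an annotated end. Some listed starts lie away from the annotated ends, and the nearest summit was 122 bp from a listed start of Osbpl5 and 565 bp from one of Dhcr7. Osbpl5, outside the window, held 5 summits, with a highest fold of 15.9. At the lower edge of the window the first summit inside it had a fold of 2.37 and the last one outside it, inside Th, 4.69. At the upper edge the last inside had 9.61 and the first outside, inside Cars, 11.5.

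The summits of the domain were also grouped by the distance between them. When summits at most 15 kb apart were joined, a distance chosen after the values were seen, 3 groups had at least 4 summits. They comprised 5 summits from Tssc4 to just beyond Trpm5 over 25.8 kb, 4 in the first part of Kcnq1 over 15.01 kb, and 6 from Cdkn1c into Slc22a18 over 19.5 kb. Measured from the first to the last summit of each group, these 15 of 27 summits took 9.47% of the window's length. At this joining distance they included all 6 peaks with a fold of at least 10. The first of these groups had folds from 7.55 to 13.8, the second from 8.01 to 11.5 and the third from 4.20 to 13.2. The share of all deposited summits in such groups is not given here, so these counts cannot be set against a background. Neighbouring autosomal summits were a median of 17.8 kb apart, which is close to the joining distance of 15 kb. The groups also depend on that distance. Gaps of 13.3 and 12.4 kb lay inside the first and second groups, and gaps of 15.9 and 16.1 kb bounded the first. A somewhat shorter or longer joining distance would therefore give other groups. By position, 5 of the 27 summits (18.5%) lay within 1 kb of a coding gene end, against 16.3% for all summits of the autosomes and X, and a further 15 (55.6%) lay inside coding genes, against 42.2%. These 15 include the 7 summits of the 320 kb Kcnq1. The window was drawn from gene ends, so its share inside genes is not directly comparable with that of whole chromosomes.

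The domain was denser in peaks than the genome as a whole. It held 4.24 peaks per 100 kb, against 2.39 on chromosome 7 and 2.09 on the 19 autosomes, or 2.03 times the autosomal density. Consecutive autosomal windows of the same length held a median of 10 peaks (quartiles 4 and 19), and 516 of 3767 (13.7%) held at least 27. On chromosome 7 alone the median was 13 peaks (quartiles 4 and 22), and 37 of 223 windows (16.6%) held at least 27. The median fold was 7.35 (range 2.37 to 13.8) in the domain and 6.82 over all peaks. The median −log10 q was 38.2 in the domain, against 29.5 over all peaks and 32.1 on chromosome 7. Of the 27 peaks, 6 (22.2%) had a fold of 10 or more, where 19.6% of all peaks did, and 22 (81.5%) had a fold of 5 or more, where 71.9% of all peaks did.

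Wide peaks were frequent in the domain. At least 1 kb wide were 10 of 27 peaks (37.0%), where 16.6% of all peaks and 18.1% of those on chromosome 7 were as wide. The 10 wide peaks had a median fold of 7.18 and a median −log10 q of 59.9. The 17 narrower ones had a median fold of 7.35 and a median −log10 q of 24.3. In the whole list the median −log10 q was 60.2 for wide peaks and 22.0 for narrower ones, so width and −log10 q also went together there. The first peak of the window, between Th and Ascl2, was 1768 bp wide and had the lowest fold of the 27, 2.37, which was above that of 0.646% of all peaks, at a −log10 q of 16.8.

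**Figure D4:**
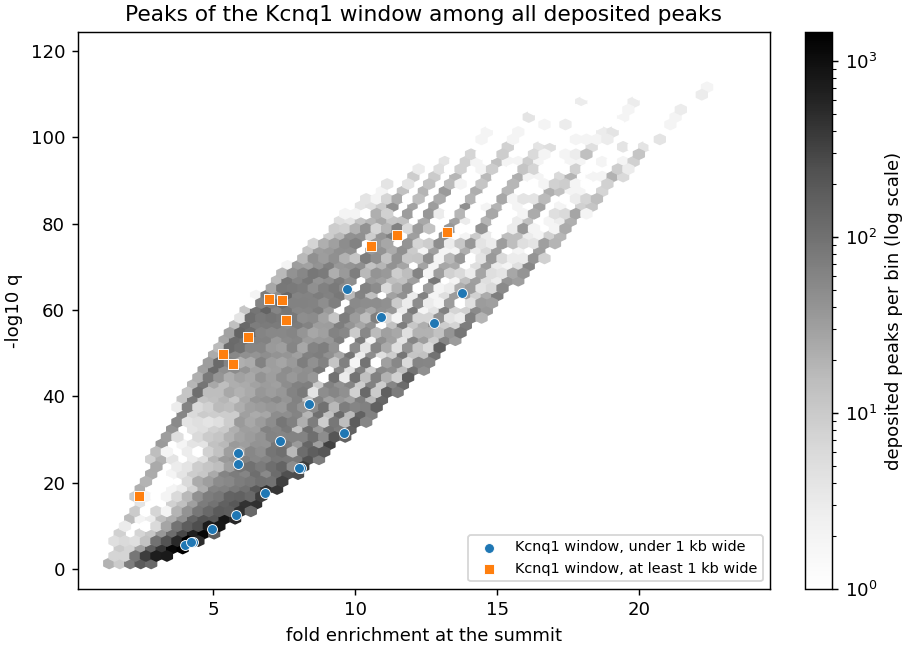
Deposited −log10 q against fold enrichment at the summit for all peaks (grey bins, log colour scale) and for the 27 peaks of the Kcnq1 window (blue points under 1 kb wide, orange squares at least 1 kb wide). The 10 wide peaks have a median −log10 q of 59.9 and the 17 narrower ones 24.3, at median folds of 7.18 and 7.35.

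Beside 2 other imprinted domains, the Kcnq1 domain was intermediate in peak density. The Igf2r-Airn domain on chromosome 17 also has a long antisense RNA, Airn, which silences neighbours in cis on the paternal chromosome. With its 4 genes padded in the same way, it held 20 peaks, or 3.70 per 100 kb, with a median fold of 7.501. The neighbouring H19-Igf2 locus held 14 peaks, or 6.86 per 100 kb, with a median fold of 6.23. Wide peaks were 8 of 20 (40.0%) in the Igf2r-Airn domain and 0 of 14 in the H19-Igf2 locus. The antisense RNAs themselves differed in where CTCF lay. Airn had 4 summits inside its 119 kb and its nearest summit 27.0 kb from the start, with a fold of 5.47, and Kcnq1ot1 had none inside its 83.4 kb and one 70 bp from the start. These values compare single regions of 1 list, and the differences were not tested.

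**Figure D5:**
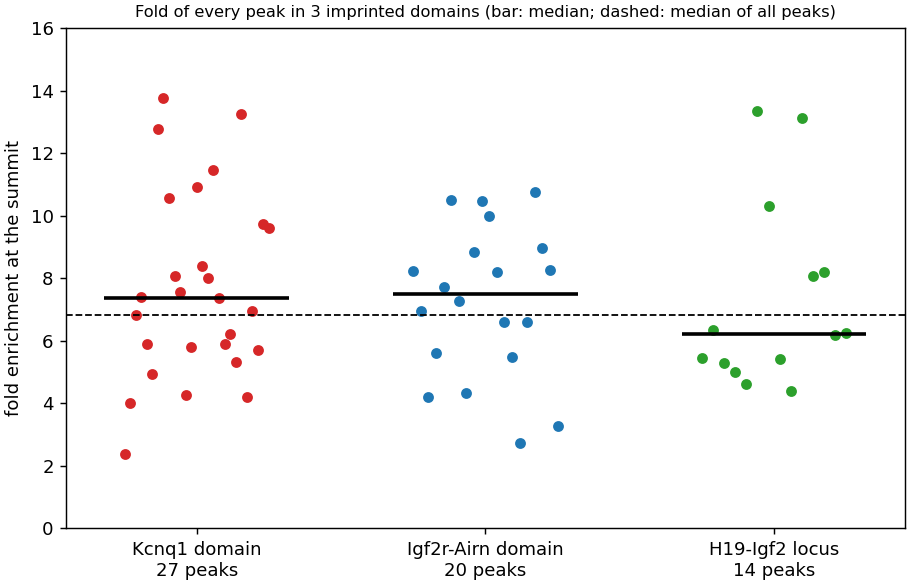
Fold enrichment at the summit of every peak in 3 imprinted domains, ordered by position within each, with the median as a bar and the median of all peaks dashed. The ranges overlap, and the medians are 7.35 in the Kcnq1 domain, 7.501 in the Igf2r-Airn domain and 6.23 in the H19-Igf2 locus.

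The member promoters differed in base composition. The ratio of observed to expected CpG was 0.422 at Kcnq1ot1, with 53.3% G and C, and 0.904 at Tssc4, with 58.3%. Cd81, Ascl2 and Phlda2 had ratios of 0.713, 0.685 and 0.819, and Tspan32 and Slc22a18 had 0.0850 and 0.0919. Over all promoter windows the median ratio was 0.849 where a summit lay inside and 0.322 where none did. The Kcnq1ot1 window thus had a summit at a CpG ratio below the lower quartile, 0.706, of windows with a summit. The window printed covers only 300 bases at the start of the RNA, and the rest of the control region was not analysed here.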

How the data were processed

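CTCF binding was measured in whole testes of F1 mice (2 IP and 2 input samples), and 1 merged peak list was analysed. The submitters' processing notes name BWA 0.7.12, MACS2 2.2.7 and mm10, with no role or order. Peak names include bio2 and merged, and which IP samples were used is not given in the sources used here. For each peak the authors deposited a fold enrichment (a ratio), the −log10 of p and of q, and a score that equals 10 times the latter to within 1 (100% of peaks) and was not used. These values served only to describe, rank or filter peaks within the list. As there are no counts, depth is unknown and no floor or interval on the value of a single peak was possible.

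Gene positions and promoter sequences came from RefSeq tables of GRCm38.p6. Genes starting below 3 Mb on an autosome or X (340) were left out as scaffold coordinates. Densities per chromosome used the length beyond 3 Mb. Computation used Python 3.11.15, numpy 2.4.6, pandas 2.3.3 and scipy 1.17.1, and the counting functions were tested on simulated data. Samples were grouped by title, but no value per sample was available, so no test was made. Summits are 1-based.

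The rule for named genes took all 9 members, 10 listed neighbours, the peaks of the window and the 3 coding genes closest to Kcnq1 in length. Members and lists were chosen with earlier results of these data known. Alternatives were the padding, peak strength, the gene-end window and the letters searched. The transcription start alternative used the 7 members with a listed start.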

Additional observations from a re-analysis of the deposited data

How the results depend on the processing

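Of 28 alternatives, 22 kept their value within the limits set, 1.5 times for counts and densities and the 95% order-statistic interval, 5.81 to 9.61, for the median fold. The rest gave other values by construction, since fewer peaks or looser letters were used. The alternatives reuse peaks of the same list, and the limits are wide. A change of the member count from 4 to 6 was within them, and the interval for the fold also holds the median of all peaks, 6.82. The count of 22 therefore says little about how firm a value is. With peaks whose −log10 q reached the median, the domain held 2.51 peaks per 100 kb, the Igf2r-Airn domain 2.22 and the H19-Igf2 locus 3.43, 2 members had a summit at an end and Kcnq1 held 4 summits. With the looser letters, 1 member promoter had a match. The density relative to the autosomes was 2.30 with a fold of at least 5 and 2.37 with the stricter −log10 q. The longest gap was 165 to 167 kb. Members with a summit at an end were 3 with a 500 bp window, 6 with 2.5 kb (Ascl2 and Tspan32 were added), 3 with a fold of at least 5 and 3 of 7 by transcription start. Alternatives for the other domains, the density ratio, the gap and the count inside Kcnq1 were chosen after seeing the data. No paired analysis was possible because the list carries no value per sample, and no replicate could be left out for the same reason. Since read depth is unknown, weaker sites inside the gaps may be missing from the list, and their number cannot be given.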

Other observations

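Of 4 other noncoding genes of the domain, 2, R74862 and Gm33663, had a CTCF summit within 1 kb of an end, where 19.3% of all long noncoding RNA genes had one. R74862, which overlaps the start of Cd81, held 2 summits, with folds of 5.88 and 4.94, and the latter lay 480 bp from its upper end. That summit is the one already counted for Cd81, so it is not a separate site. Gm28821, inside Kcnq1, held the summit of fold 10.9 at 143139006, 1.61 kb from its upper end. Gm33663 had summits 750 bp from its lower end and 14 bp from its upper end, with folds of 6.21 and 5.33. The exception among these 4 was 4933417O13Rik, also inside Kcnq1 but beyond the start of Kcnq1ot1, which held none. Its nearest summit was that of Kcnq1ot1, 26.2 kb away.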
